A study of Mus musculus with 15 samples.

Results

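Day 30 of a high-fat diet was compared with control chow in CD4 T lymphocytes of the mouse small intestine, using the 10 arrays of these groups out of 15 in the series. The members are the 5 arrays whose titles place them at day 30 of the diet and the 5 arrays titled as controls, each a one-colour Agilent array of 1 sample. Male mice of both groups gave leukocytes from the lamina propria, the layer under the gut epithelium, and CD4 T cells were then sorted from them by flow cytometry. Controls ate normal chow and their labels give no day, so age or time in the experiment cannot be told apart from the diet. No strain, age or genotype is given for either group, and no treatment beyond the diet. Per the design text the diet was a way to alter the gut microbiota, and the series title speaks of prediabetic and diabetic mice. Whether the 5 arrays of a group stand for 5 mice, or for parts of a pool, the labels do not say. The p-values therefore measure the spread between arrays, which may be technical.

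CD4 T cells of the lamina propria are mostly activated or memory cells. They include Th17 cells, which make IL-17 and IL-22 and help to keep the epithelial barrier, Th1 cells, which make interferon gamma, and Foxp3 regulatory T cells, which restrain inflammation. Tbx21, Gata3, Foxp3 and Bcl6 encode transcription factors that define the Th1, Th2, regulatory and follicular helper programmes. Bacteria of the gut lumen and lipids of the diet are both known to shape these cells.

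Before any gene is described, 3 features of the arrays need to be known. Controls were all hybridised on slide 1 with day 10 replicates 1 to 3, and day 30 arrays were all on slide 2 with day 10 replicates 4 and 5, so slide and diet cannot be told apart among these 10 arrays. Fewer spots were called well above background at day 30 (51.3% ± 5.48, SD, n = 5) than in control (63.8% ± 11.96, n = 5), a difference of -12.5 percentage points (two-sided exact permutation test, p = 0.0556). Control replicate 1 stood apart at 82.0%, and without it the difference was -7.92 points. The permutation p was 0.0318 without control replicate 3 (-15.7 points) and without day 30 replicate 4 (-14.5 points), and 0.0476 without control replicate 5 (-14.5 points). Without control replicate 1 it was 0.111, and with any other single array left out it lay between 0.0794 and 0.111. Arrays of one group were no more alike than arrays of different groups, with a median correlation over tested genes of 0.740 against 0.746.

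All values below are log2 signals of a gene's brightest probe relative to the 75th percentile of its array, so 0 is the level of that percentile. The test took in the 22655 genes whose probe was called well above background by the scanner software on 5 or more of these 10 arrays, and 12166 dimmer genes were not tested.

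No gene passed the test across all genes. With limma and Benjamini-Hochberg adjustment, 0 of 22655 genes (0%) had an adjusted p under 0.05, and the smallest adjusted p was 0.123. At an unadjusted p under 0.05 there were 1028 genes (4.54%), a share below the 0.05 expected where no gene differs. Of these, 452 (2.00%) were higher and 576 (2.54%) were lower at day 30. The 5 day 30 values lay wholly above the 5 control values for 59 genes (0.260%) and wholly below them for 89 (0.393%). The mean was higher at day 30 for 51.9% of tested genes and lower for 48.1%, and the median difference of all tested genes was 0.03. That median was -0.35 when the percentile was taken over detected probes, -0.25 in the authors' value table and 0.18 with slide as a block, so a difference of this size is read against these shifts. Of the genes fitted from the authors' value table, 27.7% had a higher mean at day 30, and list counts from it are read against that share.

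Direction went with brightness. With the tested genes ordered by mean signal and cut into 10 equal bins, 89.7% of the brightest bin had a higher mean at day 30, with a median difference of 0.38, while in the dimmest bin 38.6% did, with a median of -0.26. At an unadjusted p under 0.05 the brightest bin held 100 higher genes and 0 lower ones, and the dimmest bin 18 higher and 84 lower. The part that array brightness has in any gene's difference was not tested.

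**Figure D1:**
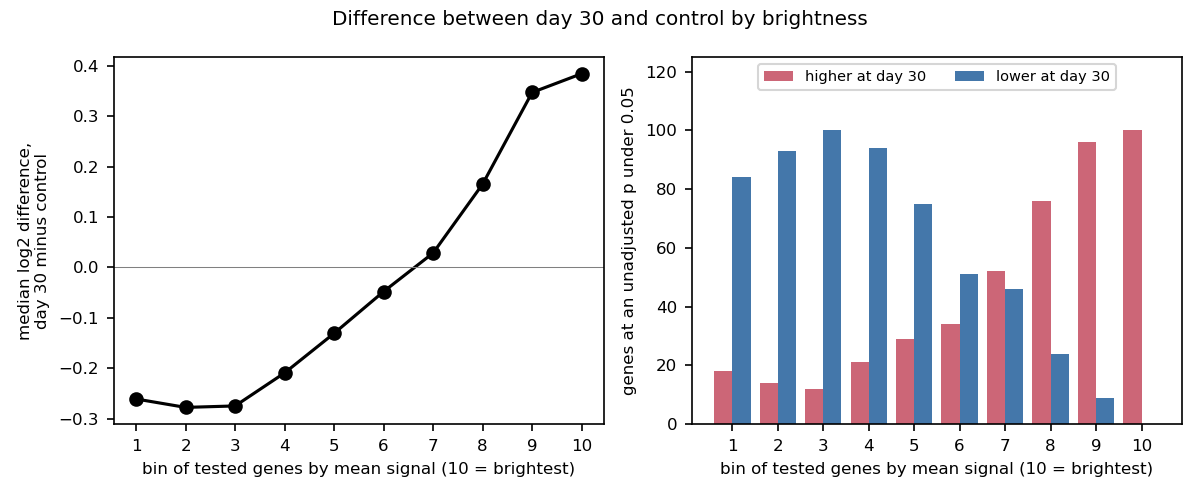
Left, median log2 difference (day 30 minus control) in 10 equal bins of the 22655 tested genes, ordered by mean signal over the 10 arrays. Right, number of genes at an unadjusted p under 0.05 in each bin, higher (red) or lower (blue) at day 30. The medians run from -0.26 in the dimmest bin to 0.38 in the brightest, which holds 100 higher and 0 lower genes.

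Among genes lower at day 30, several had signal well above background on all 5 control arrays and on 0 day 30 arrays. There were 24 such genes and 0 of the reverse kind. They entered the test through the control group alone, so some separation was fixed by the filter, and fewer spots were detected at day 30 in general. Suclg2 encodes a subunit of the succinate-CoA ligase of the citric acid cycle. It stood at -1.52, 0.38, -1.95, 0.42 and -0.37 on the control arrays and at -5.49, -6.09, -5.01, -4.75 and -5.79 on the day 30 arrays. The groups did not overlap, and no day 30 array had the probe well above background, so only a bound holds. Suclg2 was at least 7.41-fold lower at day 30 (adjusted p = 0.123). Such a bound sets the control mean against the lowest signal well above background on each day 30 array, or the probe's own value where that is higher.

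Cenpv encodes a protein of the centromere and spindle midzone. Its control values were -0.09, -0.84, -1.77, -0.96 and -2.07, and its day 30 values were -5.25, -5.93, -4.72, -5.58 and -5.54, below background on all 5 arrays. It was at least 5.09-fold lower (adjusted p = 0.123). Day 10 means were near the control mean on both slides (-0.93 on slide 1 and -1.15 on slide 2), although single day 10 arrays varied widely. Of the leading genes, Cenpv was one of 3 lower genes in which all 5 day 30 values also lay below both day 10 values of the same slide.

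Emc9, a subunit of the endoplasmic reticulum membrane complex that inserts membrane proteins, was read at -1.81, 0.10, 2.57, 0.26 and -0.85 in control and at -5.18, -6.24, -5.18, -5.88 and -4.09 at day 30. That made it at least 11.7-fold lower (adjusted p = 0.134), again with no day 30 array well above background. Here the day 10 arrays were low as well, with means of -4.61 on slide 1 and -5.17 on slide 2. Ufsp2, a protease that matures the ubiquitin-like protein UFM1, was at least 8.88-fold lower (adjusted p = 0.163), and its day 10 means were -3.18 and -5.26.

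Other leading genes on the low side kept some signal at day 30. As3mt, the arsenite methyltransferase, had a mean of 0.10 ± 0.87 (SD, n = 5) in control and -4.98 ± 1.08 at day 30, a log2 difference of -5.08 (SE 0.73, adjusted p = 0.123), with 1 day 30 array well above background. Its day 10 means were 0.92 on slide 1 and -3.53 on slide 2, where replicates 4 and 5 were far apart (-6.61 and -0.46). Vkorc1l1, a paralogue of the vitamin K epoxide reductase, had control values between 0.59 and 1.77, and day 30 values of -5.13, -1.32, -4.86, -5.56 and -5.63. The difference was -5.61 (SE 0.85, adjusted p = 0.123), and replicate 2 alone stood near the controls. Its day 10 means were -4.63 on slide 1 and 2.42 on slide 2, the reverse order of As3mt. With slide as a block over 15 arrays the difference of Vkorc1l1 was -12.67 (adjusted p = 0.00816), and without day 30 replicate 2 it was -6.41 (adjusted p = 0.0102), the 2 settings in which this gene passed. Replicate 2 was the 1 day 30 array with the probe well above background. Without it the gene was detected in controls alone, so some of that separation was fixed by the filter. The block value extrapolates from day 10 arrays that were far apart between slides, lies beyond the range the arrays read, and is no measured size. With values raised to the detection limit the difference was -4.09.

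Mrps21, a protein of the small subunit of the mitochondrial ribosome, was at -0.32, 0.33, 1.13, -0.79 and -0.27 in control. Day 30 values were -5.46, -6.06, -4.29, -2.22 and -5.69, a difference of -4.76 (SE 0.82, adjusted p = 0.189). A second probe of the gene that passed the filter gave -3.27, the same direction. The day 10 means of both slides lay above the day 30 mean, at -1.76 and 1.04. Day 10 replicates 1 and 3 (-2.58 and -2.74) were nonetheless below day 30 replicate 4. Dusp14, a dual-specificity phosphatase, differed by -5.35 (SE 0.85), and Nol9, a polynucleotide kinase of ribosomal RNA processing, by -4.28 (SE 0.74). All of these low genes were well above background on at most 2 day 30 arrays. Ccno, which encodes cyclin O, and the zinc finger gene Zfp566 differed by -4.72 (SE 0.91) and -3.78 (SE 0.80).

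Together the 11 leading low genes described here had differences from -5.61 to -3.78, and from -4.83 to -2.35 once values under an array's lowest signal well above background were raised to it. Adjusted p for them lay between 0.123 and 0.561. On the day 10 arrays of slide 2, the mean of 6 of the 11 was nearer to day 30 than to control. With slide as a block all 11 kept a negative sign, between -12.67 and -0.28, and 4 had an unadjusted p under 0.05.

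Of the 12 leading genes higher at day 30, 10 were well above background on all 10 arrays, as were 12079 of the 22655 tested genes. Among all higher genes at an unadjusted p under 0.05, 9.29% were well above background on at most 2 control arrays (2.11% of tested genes). Among the lower ones 55.7% were so on at most 2 day 30 arrays (13.4% of tested genes). Rab5if, named for its binding to the endosomal protein Rab5, was at -0.92, -0.97, -0.68, 0.43 and 0.06 in control and at 3.80, 2.39, 4.57, 2.10 and 2.11 at day 30. Every day 30 value was above every control value, and the difference was 3.41 (SE 0.60, adjusted p = 0.189). Day 10 means were 2.49 on slide 1 and -0.04 on slide 2. Csnk2a2, a catalytic subunit of casein kinase 2, was at 0.19, 0.45, 1.66, 0.14 and -0.61 in control and at 2.78, 2.64, 3.22, 2.71 and 2.68 at day 30, a difference of 2.44 (SE 0.47, adjusted p = 0.312). Its day 30 arrays were tightly grouped, with an SD of 0.24 against 0.82 in control. Cd200r2, a surface protein of the CD200 receptor family, was at -1.44, -1.55, 0.84, -0.10 and -0.73 in control and at 2.87, 1.35, 2.02, 2.46 and 2.01 at day 30. It differed by 2.74 (SE 0.57, adjusted p = 0.561), with day 10 means between the groups on both slides (0.89 and 1.22).

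Rnf43, a ubiquitin ligase that removes Wnt receptors from the cell surface, differed by 3.63 (SE 0.85) but was well above background on only 1 control array, and by 2.20 with values raised to the detection limit. Scai, a cofactor that restrains the actin-regulated transcription factor MRTF, differed by 3.54 (SE 1.01). The remaining leading genes were nearer to control. Parp8, an ADP-ribosyltransferase, differed by 2.28 (SE 0.64), Idnk, a gluconokinase, by 2.04 (SE 0.51), and Ubxn1, an adaptor of the p97 segregase, by 1.97 (SE 0.53). Slc25a28, a mitochondrial iron carrier, differed by 1.79 (SE 0.47), Ppp1r12c, a myosin phosphatase subunit, by 1.66 (SE 0.46), and Noc2l, a nucleolar inhibitor of histone acetyltransferases, by 1.58 (SE 0.37). Adjusted p over the 12 lay between 0.189 and 0.999. All 12 stayed positive with slide as a block, from 0.79 to 5.94, and 9 of them had an unadjusted p under 0.05 there. None of these leading genes, higher or lower, changed sign in any alternative in which it had a value, but sizes moved. They were chosen for groups that do not overlap, so leaving out or weighting arrays could not change a sign. In the authors' value table the 11 higher genes with a value differed by 0.53 to 1.84, with Rab5if at 1.84, Slc25a28 at 0.65, Ppp1r12c at 0.62 and Noc2l at 0.53.

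**Figure D2:**
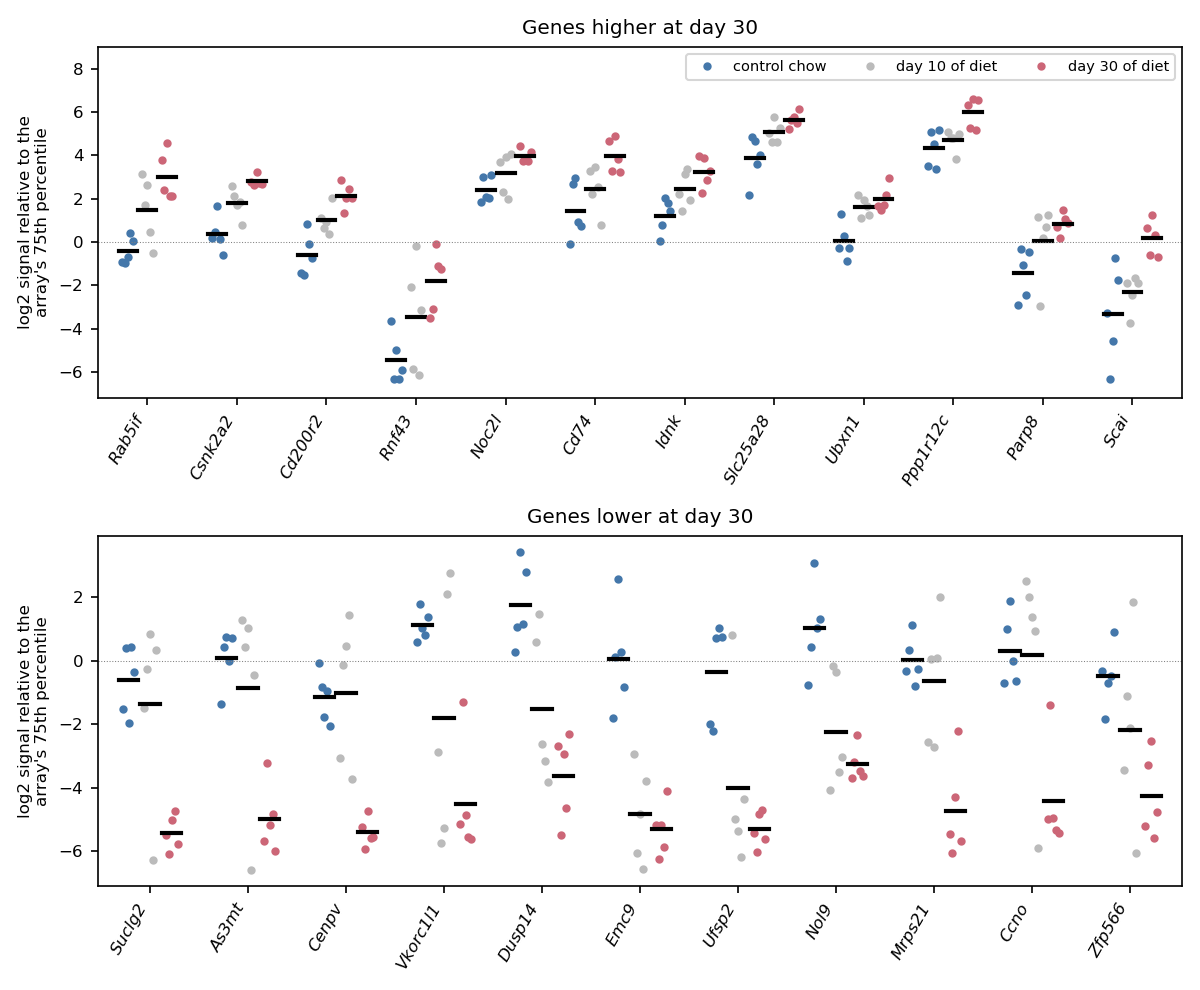
Log2 signal relative to the array's 75th percentile for 12 genes higher (top) and 11 lower (bottom) at day 30, among those of smallest unadjusted p of named genes whose groups do not overlap. Each point is 1 array, bars are group means, and day 10 arrays are shown in grey. Day 30 values of most low genes sit near -5, while 10 of the 12 high genes are well above background on every control and day 30 array (12079 of 22655 tested genes are).

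A probe outside the naming rule was singled out after its values were seen, because it passed in 2 alternative analyses. The files name it only by an interval on mm9, chr8:27259077-27268252, with no gene symbol. Control values were -1.04, -6.09, -6.16, -4.06 and -5.64, and day 30 values were 2.80, 1.20, 2.81, 1.96 and 1.13. It was well above background on 1 control array and on all 5 day 30 arrays, with a difference of 6.58 (SE 0.98, adjusted p = 0.123). Since 4 controls were dim, that size is uncertain, and it was 5.42 (adjusted p = 0.209) with values raised to each array's detection limit. Array weights gave 6.84 (adjusted p = 0.0486). Leaving out control replicate 1 gave 7.47 (adjusted p = 0.0151), with no control array then above background. The probe then met the filter through day 30 alone, so some of that separation was fixed by the filter.

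Each gene was read through its brightest 60-base probe, and only Mrps21 among those shown had another probe that passed. The first 30 bases of 6 probes are shown because the separations described above rest on them. They are in lower case, 5′ to 3′, with mm9 coordinates and strand per the file headers.
Rab5if, chr2:156699210-156699239, plus strand: gtggtccatggtacaatacaagcagccatc
Cd200r2, chr16:44915823-44915852, plus strand: tgagtaggtaggaagcatcctcatagatgc
Suclg2, chr6:95424742-95424771, minus strand: tgtgcatacatacagtatttaaagccagat
Cenpv, chr11:62338517-62338546, minus strand: tctgccttaacccaggtttcgtgtaagaaa
Emc9, chr14:56200410-56200439, minus strand: aatcactcaatggagtggttccacagatgg
Mrps21, chr3:95666607-95666636, minus strand: ctttctttatccagccaagttctgttactt
The GC content of the whole probes was 41.7% for Rab5if, 45% for Cd200r2 and Emc9, 41.7% for Cenpv, and 35% for Suclg2 and Mrps21.

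The antigen presentation genes split. Cd74, the invariant chain that escorts MHC class II molecules, was at -0.08, 2.68, 2.93, 0.91 and 0.74 in control and at 4.67, 3.29, 4.90, 3.81 and 3.21 at day 30. Every day 30 value was above every control value, and the difference was 2.54 (SE 0.63, adjusted p = 0.945). H2-Aa, the alpha chain of the class II molecule that Cd74 binds, went the other way, with -3.52, 0.39, 4.13, 1.36 and 1.74 in control and -5.49, -2.92, -4.68, -1.35 and -4.13 at day 30. Its difference was -4.53 (SE 1.28, adjusted p = 0.999), the groups overlapped through control replicate 1, and 2 day 30 arrays were well above background. H2-Ab1, the beta chain partner of H2-Aa, differed by 1.39 (SE 1.32), and H2-DMa, which helps to load peptides, by -2.05 (SE 0.88). Of 9 tested genes of the list 4 were higher and 5 lower, with a median of -0.13. Macrophages, dendritic cells and B cells carry these genes at high levels, and fewer such cells cannot be told apart from less RNA per cell in bulk samples.

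Markers of those other cells were therefore counted beside it. Of 15 macrophage and dendritic cell markers, between 7 and 15 were well above background on a control array and between 7 and 12 on a day 30 array. Their summed linear level over 11 tested genes ranged from 382 to 499 in control and from 401 to 876 at day 30. Of those 11 genes, 2 were in the brightest of 4 equal bins of tested genes, so few bright probes carry most of that sum. Aif1, a calcium-binding protein of macrophages, differed by -2.56 (SE 0.81), while Csf1r, the macrophage growth factor receptor, and Itgam were detected on all 10 arrays. Of 14 B cell and plasma cell markers, between 7 and 12 were above background per control array and between 7 and 9 at day 30, and the summed level of 8 tested genes ranged from 37.6 to 56.2 and from 38.4 to 72.5. Of those 8 genes, 1 was in the brightest bin. Ms4a1, which encodes CD20, was above background on 0 of 10 arrays. The part of these cells in the class II values was not tested.

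Genes of T cell identity were detected on all arrays. All 22 genes of the T cell receptor and CD4 list were tested and 20 were well above background on all 10 arrays, 18 with a higher and 4 with a lower mean at day 30. The list's median difference was 0.45, but it was -0.12 in the authors' value table and 0.02 without control replicate 1, whose list median of 1.45 lay below the other 4 controls. Cd4 was at 2.51, 3.40, 3.91, 3.57 and 3.16 in control and at 4.59, 3.91, 5.13, 3.28 and 3.62 at day 30, a difference of 0.80 (95% interval -0.13 to 1.73). A second Cd4 probe gave -0.39, and the value table gave -0.022. Thy1, a surface glycoprotein of T cells, differed by 0.90 (SE 0.32), and Cd5, which tunes receptor signalling, by 1.48 (SE 0.63), both at an unadjusted p under 0.05 and with overlapping groups. Cd3e and Cd3g, chains of the receptor complex, differed by 0.04 (SE 0.69) and 0.21 (SE 0.58).

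Transcription factors of the helper programmes had intervals that included 0, apart from Foxp3. Tbx21 differed by 0.51 (95% interval -0.23 to 1.24; -0.24 in the value table), Gata3 by -0.42 (-1.55 to 0.71), and Bcl6 by 0.13 (-1.17 to 1.43). These intervals leave room for a change of more than 1 log2 unit in at least one direction for each of the 3. With slide as a block Tbx21 differed by 1.39 (unadjusted p = 0.0225 by limma) and Gata3 by -1.10. Bcl6 turned negative in several settings (-0.056 with quantile normalization).

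Foxp3 had a lower mean at day 30. It was at 0.09, -1.10, 0.97, 1.52 and 2.53 in control and at -0.69, -0.31, 0.05, -1.66 and -1.67 at day 30, with a difference of -1.66 (95% interval -3.24 to -0.07, adjusted p = 0.999). The groups overlapped through control replicate 2, while the other 4 controls were above all day 30 values. Over the 24 alternatives the difference stayed negative, from -2.43 to -1.03, and no adjusted p was under 0.585. It was -1.22 in the value table. Il10, the cytokine gene of regulatory and other T cells, was at 0.30, 3.39, 3.57, 2.71 and 3.22 in control and at 2.25, 0.93, 2.50, 0.21 and 1.03 at day 30. The difference was -1.26 (95% interval -2.76 to 0.25). Without control replicate 1, the one low control, the day 30 values all lay below the remaining 4, and the difference was -1.84. Of 14 tested regulatory T cell genes 7 were higher and 7 lower, with a median of 0.02. Without control replicate 1 the split was 3 higher and 11 lower (median -0.30). The authors' value table gave 1 higher and 11 lower (-0.44), where 27.7% of all genes were higher and their median was -0.25. The detected share as a covariate gave 3 higher and 11 lower (-0.95). Ctla4, an inhibitory receptor of these cells, differed by 0.19 (SE 0.49), and Il2ra, the alpha chain of the IL-2 receptor, by 0.83 (SE 1.86).

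Cytokine genes varied more between arrays than between groups. Il17a was at -4.94, -2.88, -0.83, -1.52 and -2.00 in control and at -1.55, -4.69, -0.66, -2.19 and -2.91 at day 30. Its groups overlapped fully, and the difference was 0.03 (95% interval -2.07 to 2.13), negative in several settings including the value table (-0.44). Il17f was at 0.65, -3.08, 0.75, 2.27 and 1.98 in control and at 2.73, 1.29, 1.33, -5.06 and 1.11 at day 30. The difference of -0.24 (95% interval -3.34 to 2.87) turned to 1.10 without day 30 replicate 4, the one array at which it was lost, and to 0.036 in the value table.

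Il22, a cytokine that acts on the epithelium, ranged from -1.22 to 4.72 in control and from -3.26 to 2.55 at day 30, a difference of -1.73 (95% interval -4.72 to 1.25). Ifng was at 0.24, 0.90, 2.73, 0.31 and 1.52 in control and at -4.88, 1.88, 0.54, -3.43 and 0.39 at day 30. It differed by -2.24 (95% interval -4.87 to 0.39), with day 30 replicates 1 and 4 below all controls and the other 3 within the control range. Tnf was too dim to be tested, above background on 1 control and 0 day 30 arrays. The helper lists were divided, with 8 of 13 Th17 genes, 8 of 13 Th1 genes and 4 of 9 Th2 genes higher, and medians of 0.03, 0.21 and -0.08. Without control replicate 1, 5 of 13, 5 of 13 and 4 of 9 were higher, with medians of -0.20, -0.25 and -0.48. With the detected share as a covariate 1 of 13 Th17 genes was higher (median -1.46).

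**Figure D3:**
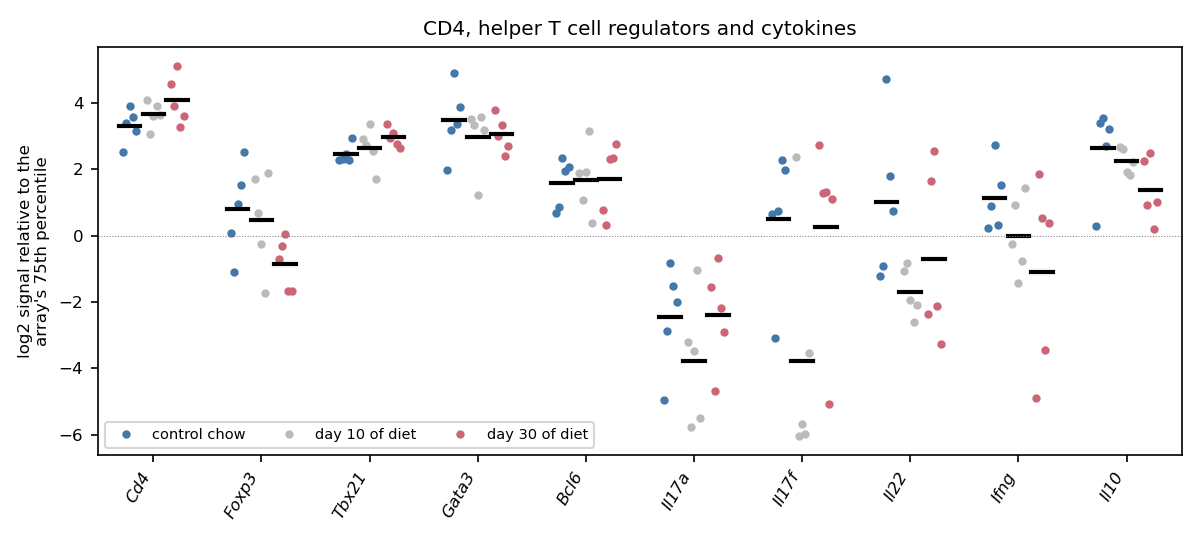
Log2 signal relative to the array's 75th percentile for Cd4, 4 helper programme regulators and 5 cytokine genes. Each point is 1 array, bars are group means. Control and day 30 values overlap for all 10 genes, and Il17f, Il22 and Ifng spread over more than 5 log2 units within the day 30 group.

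Receptors that place a T cell in tissue or lymph node were also read. Ccr7, which guides naive and central memory cells to lymph nodes, was at -4.38, -4.26, -5.16, -3.85 and -4.35 in control and at -3.78, -1.65, 0.49, -2.13 and -1.23 at day 30. The groups did not overlap, although day 30 replicate 1 was only just above the highest control, and the probe was well above background on 1 control and 4 day 30 arrays. The difference was 2.74 (SE 0.80, adjusted p = 0.999). Of the 12 tested naive and recirculating T cell genes 8 were higher and 4 lower (median 0.31), and 6 were higher without control replicate 1 (median -0.013). Among them, Tcf7 differed by 0.56, Lef1 by -1.60 and Klf2 by -1.71. Gpr15, a homing receptor for the large intestine, differed by -2.22 (SE 0.92), and Ccr9, the homing receptor for the small intestine, by 0.54. Of 14 tested homing and residency genes 9 were higher and 5 lower, and of 12 chemokine receptor genes 10 were higher (medians 0.52 and 0.57). These medians were 0.084 and 0.079 without control replicate 1. In the authors' value table they were -0.092 and -0.041, and with the detected share as a covariate -0.74 and -0.67.

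Pdcd1, the inhibitory receptor PD-1, was at 0.97, 1.91, 0.47, 2.73 and 1.32 in control and at -0.58, 0.20, 0.32, -5.55 and 0.51 at day 30, a difference of -2.50 (SE 1.08, adjusted p = 0.999). Day 30 replicate 4 was far below the rest, and replicate 5 alone reached the lowest control. Areg, a growth factor for epithelial repair made by Th2 and regulatory cells, differed by -3.33 (SE 1.52). It was lost on 2 day 30 arrays (-5.60 and -5.13) and lay at 0.09, 3.08 and 1.17 on the others, against 0.50 to 2.90 in control. Of 12 inhibitory receptor genes 6 were higher and 6 lower (3 and 9 without control replicate 1), with Lag3 at -1.50, Havcr2 at -1.32 and Cd96 at 2.08 (unadjusted p = 0.0513 by limma).

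Several cell cycle and replication genes lost signal on day 30 arrays. Of 25 tested genes 18 were lower and 7 higher (48.1% of all genes were lower), the median difference was -0.51, and 3 were lower at an unadjusted p under 0.05 (2.54% of all tested genes were). Mcm6, a subunit of the replicative helicase, was at 0.22, 1.87, 3.01, 1.91 and 0.66 in control and at -3.80, -0.31, -3.68, 1.33 and -4.80 at day 30, a difference of -3.79 (SE 1.14, adjusted p = 0.999). Day 30 replicate 4 lay within the control range and the other 4 arrays below it. Cdc6, which loads that helicase, differed by -3.41 (SE 1.37), and Ckap2l, a spindle protein, by -3.61 (SE 1.59). Other members stood apart from them, with Mki67, the usual proliferation marker, at -0.05 (SE 0.69), Top2a at 0.22 and Mcm7, of the same helicase as Mcm6, at 1.91 (SE 1.06). The list's median was negative in each of the 24 alternatives, from -0.98 to -0.051. Signal was well above background throughout the 10 arrays for only 9 of them, and the median of those was -0.051.

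Cytosolic ribosomal proteins had a higher mean at day 30 for 78 of 78 tested genes, with a median difference of 0.61. In the authors' value table, however, 24 of 76 were higher with a median of -0.08, against 27.7% and -0.25 for all genes. Each was detected well above background on every one of the 10 arrays, and all 78 were in the brightest of 4 equal bins of tested genes, where 78.6% of genes were higher and the median was 0.34. At an unadjusted p under 0.05 there were 14, all higher, against 2.00% of all tested genes and 242 of 5664 genes in that brightest bin. In the brightest of 10 equal bins, which began at a mean signal of 3.67, 89.7% of genes were higher. Its median was 0.38, and 100 of its 2266 genes were higher at that threshold. Rps9, a protein of the small subunit, was at 5.39, 6.82, 6.82, 6.64 and 6.16 in control and at 7.21, 7.28, 7.58, 7.22 and 7.61 at day 30, with no overlap and a difference of 1.01 (SE 0.29, adjusted p = 0.999). Rplp1, a protein of the ribosomal stalk, had the largest difference of the list, 1.33 (SE 0.48). Ribosomal protein genes have many processed pseudogenes, and a probe may read copies as well.

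Array by array, the ribosomal list's median was 4.18, 5.62, 6.28, 5.39 and 5.56 in control and 6.22, 5.83, 6.61, 5.56 and 6.07 at day 30. Control replicate 1, the array with most spots detected, was lowest, and day 30 replicate 3, with fewest, was highest. Without control replicate 1 the median was 0.31 (76 of 78 higher), and without both arrays it was 0.16 (67 of 78 higher). With the detection share as a covariate it was -0.12 (27 of 78 higher), and with slide as a block 0.39 (68 of 78 higher).

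**Figure D4:**
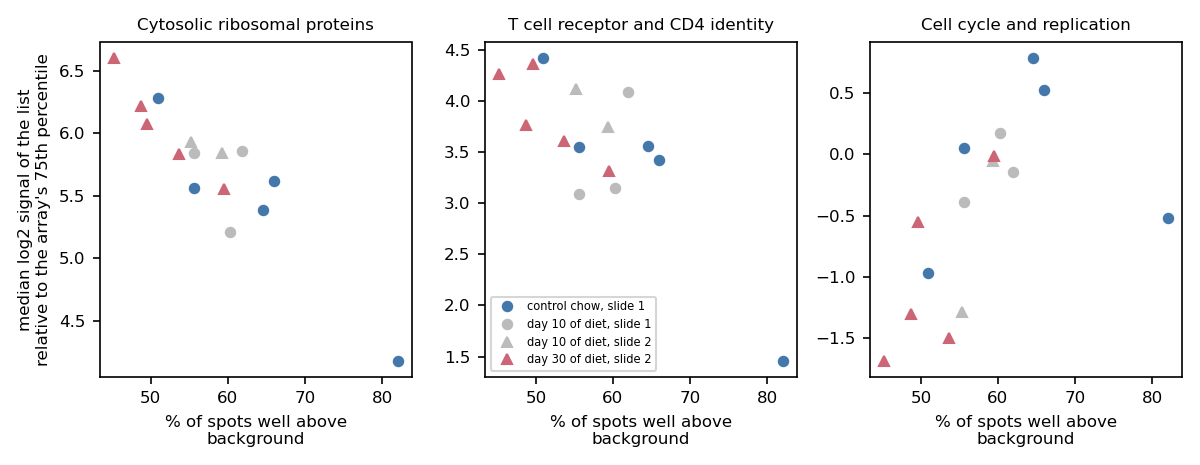
Median log2 signal of 3 gene lists on each array against the share of spots well above background, with slide 1 as circles and slide 2 as triangles. Control replicate 1 lies alone at 82.0% of spots, with the lowest median for the ribosomal and T cell lists, and the ribosomal medians of the other arrays fall between 5.21 and 6.61.

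The mRNAs of ribosomal proteins are known to begin with a C followed by a run of pyrimidines, the tract through which mTOR signalling controls their translation. Promoters of RefSeq on GRCm38.p6 were searched for a C within 3 bases of the annotated start. An unbroken run of at least 5 C or T, counted from that C on the gene's strand, was required. This was found in 24 of the 57 list genes with a promoter sequence (42.1%). It was found in 13.5% of all 27025 genes with one. The match describes these letters only. The windows below run from 20 bases before the start to 10 bases from it, for the 4 genes with the tract that had an unadjusted p under 0.05, with the run in capitals. In Rps9 the bases just before the capitals are also C or T. The run of Rpl18 is 10 bases long and goes on past the end of its window.
Rps9, chr7:3704021-3704050, plus strand: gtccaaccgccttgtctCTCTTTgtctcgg
Rps18, chr17:33955656-33955685, minus strand: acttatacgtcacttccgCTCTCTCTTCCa
Rpl18, chr7:45718051-45718080, plus strand: acgagtgcgtctcgcaggccgCTCTTTCCC
Rps23, chr13:90923102-90923131, plus strand: acggggccttcggctgggcggggCTTCCCg
Their log2 differences at day 30 were 1.01 for Rps9, 0.97 for Rps18, 0.91 for Rpl18 and 0.62 for Rps23.

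Other housekeeping groups leaned the same way as the bright genes. Of 43 translation factors 30 were higher and 13 lower (median 0.50, or -0.01 in the value table), 5 of them higher at an unadjusted p under 0.05 (2.00% of all tested genes were). Eef2, the elongation factor that moves the ribosome along, differed by 0.80 (SE 0.31), and Eif3k, a subunit of initiation factor 3, by 2.42 (SE 0.88), while 2 further Eif3k probes gave 0.29 and 0.21. Of 46 respiratory chain and ATP synthase genes 33 were higher (median 0.46, or -0.13 in the value table), among them Ndufa2 at 0.96 (SE 0.37) and Ndufs1 at 1.00, both of complex I, and Cox6a1 of complex IV at 1.90. Of 37 proteasome genes 27 were higher (median 0.34, or -0.18 in the value table). Psmb1, a subunit of the catalytic core, was the one without overlap (0.260% of all tested genes were higher without overlap), at 1.50 (SE 0.46). The medians of these 3 lists were 0.25, 0.22 and 0.074 without control replicate 1. Mitochondrial ribosomal proteins were more evenly divided, 34 higher and 25 lower (median 0.17), and ranged from Mrps21 at -4.76 to Mrpl44 at 3.01 (SE 1.06).

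Genes of lipid and glucose handling came next, since the diet was rich in fat. Of 18 tested genes of lipid uptake, transport and fatty acid binding 12 were higher and 6 lower. Their median of 0.31 lay above the median of all genes by 0.14 to 0.57 over the 24 alternatives. At an unadjusted p under 0.05, however, 0 of the 18 were higher and 1 was lower, Lipa at -2.41 (SE 1.04). Of all tested genes 2.00% were higher and 2.54% lower at that threshold. Ppargc1a, a coactivator of mitochondrial biogenesis, was at -2.54, -2.38, -5.59, -4.76 and -4.75 in control and at -0.93, 0.25, 0.21, -0.98 and -4.82 at day 30, a difference of 2.75 (SE 1.07). Day 30 replicate 5 lay among the controls and the other 4 above them. Ppara, a fatty acid sensor, differed by -1.71 (SE 0.69), but a second probe gave 0.71. Eci1, an enzyme of fatty acid oxidation, differed by -2.98 (SE 1.30) and the carnitine transferase Cpt1a by 1.24 (SE 0.97). Of 20 tested fatty acid oxidation genes 14 were higher and 6 lower, with a median of 0.43.

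In sterol and fatty acid synthesis, 3 of 26 genes were higher at an unadjusted p under 0.05, against 2.00% of all tested genes. Of the 26, 11 were in the brightest of 4 equal bins, where 242 of 5664 genes were higher at that threshold. The count was 0 in the value table and 2 with slide as a block. It was 1 without control replicate 1, and 1 with the detected share as a covariate. Mvk, the mevalonate kinase, was at 2.52, 2.62, 3.37, 2.71 and 2.60 in control and at 5.56, 4.06, 3.23, 4.33 and 4.78 at day 30, a difference of 1.63 (SE 0.43, adjusted p = 0.999), while its second probe gave -0.52. Day 30 replicate 3 lay below control replicate 3, and the other 4 day 30 values above all controls. Srebf2, the sterol-regulated transcription factor, differed by 1.33 (SE 0.57) with a second probe of opposite sign, and Scap, which carries that factor to the Golgi, by 2.65 (SE 1.08). Hmgcs1, which makes the HMG-CoA of this pathway, differed by 0.05 and Mvd, a later enzyme, by -2.05. Of 26 tested genes 16 were higher and 10 lower (median 0.26). With the covariate 10 were higher and 16 lower (median -0.52).

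Slc2a3, the glucose transporter GLUT3, was at -2.72, 0.56, 0.89, 1.40 and 0.02 in control and at -5.41, -6.03, -2.43, -0.89 and -5.61 at day 30, a difference of -4.10 (SE 1.15, adjusted p = 0.999). Only control replicate 1 overlapped with day 30, but the day 10 arrays of slide 2 were also low (-3.73), and with slide as a block the difference was 0.31. Slc2a1, the transporter GLUT1, differed by 1.80 (SE 1.38). Glycolysis genes were divided 11 to 11. Rptor, the substrate adaptor of mTOR complex 1, was at -6.25, -4.18, -3.82, -2.23 and -2.24 in control and at -2.47, -0.35, 1.79, -0.53 and 0.67 at day 30, a difference of 3.57 (SE 0.99, adjusted p = 0.999). Day 30 replicate 1 alone fell within the control range. Mtor itself differed by -0.29, and of 29 insulin and mTOR genes 14 were higher and 15 lower. Nr1h4, the bile acid receptor FXR, was at least 3.16-fold lower (adjusted p = 0.565), above background on 5 control and 0 day 30 arrays. Ffar2, a receptor for short-chain fatty acids of bacterial origin, differed by 1.32 (SE 0.73).

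Stress and sensing lists held few separations. Hspa1a, the inducible HSP70, was at -1.42, -0.06, -0.55, -1.01 and 0.29 in control and at -3.44, -2.16, -2.65, -4.05 and -4.54 at day 30, a difference of -2.82 (SE 0.68, adjusted p = 0.854) without overlap. Day 10 arrays were as low, at -3.74 and -4.66. Hspa2 differed by -2.85 (SE 1.24), while the constitutive Hspa8 and Hsp90ab1 differed by 0.52 and 0.76, and 9 of 21 heat shock genes were higher. Atf3, a stress-induced transcription factor, differed by 1.96 (SE 0.84). Of the immediate early genes 13 of 21 were higher, of the unfolded protein response 14 of 21, and of common gamma chain receptors, STAT and SOCS genes 17 of 25. With the detected share as a covariate these were 4 of 21, 4 of 21 and 7 of 25. In the interferon list 14 of 26 genes were higher, with Isg15 at 1.48 (a second probe was of opposite sign) and Oas1a, an oligoadenylate synthetase that senses RNA, at -2.27 (SE 0.91). In the NF-kB list Nfkb2 differed by 1.80 (SE 0.82), or -0.050 with slide as a block, and 13 of 20 genes were higher (6 of 19 with a value in the authors' value table). Tlr8, a receptor for single-stranded RNA, differed by -2.06 (SE 0.82), and 9 of 18 genes of microbial sensing were higher.

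**Figure D5:**
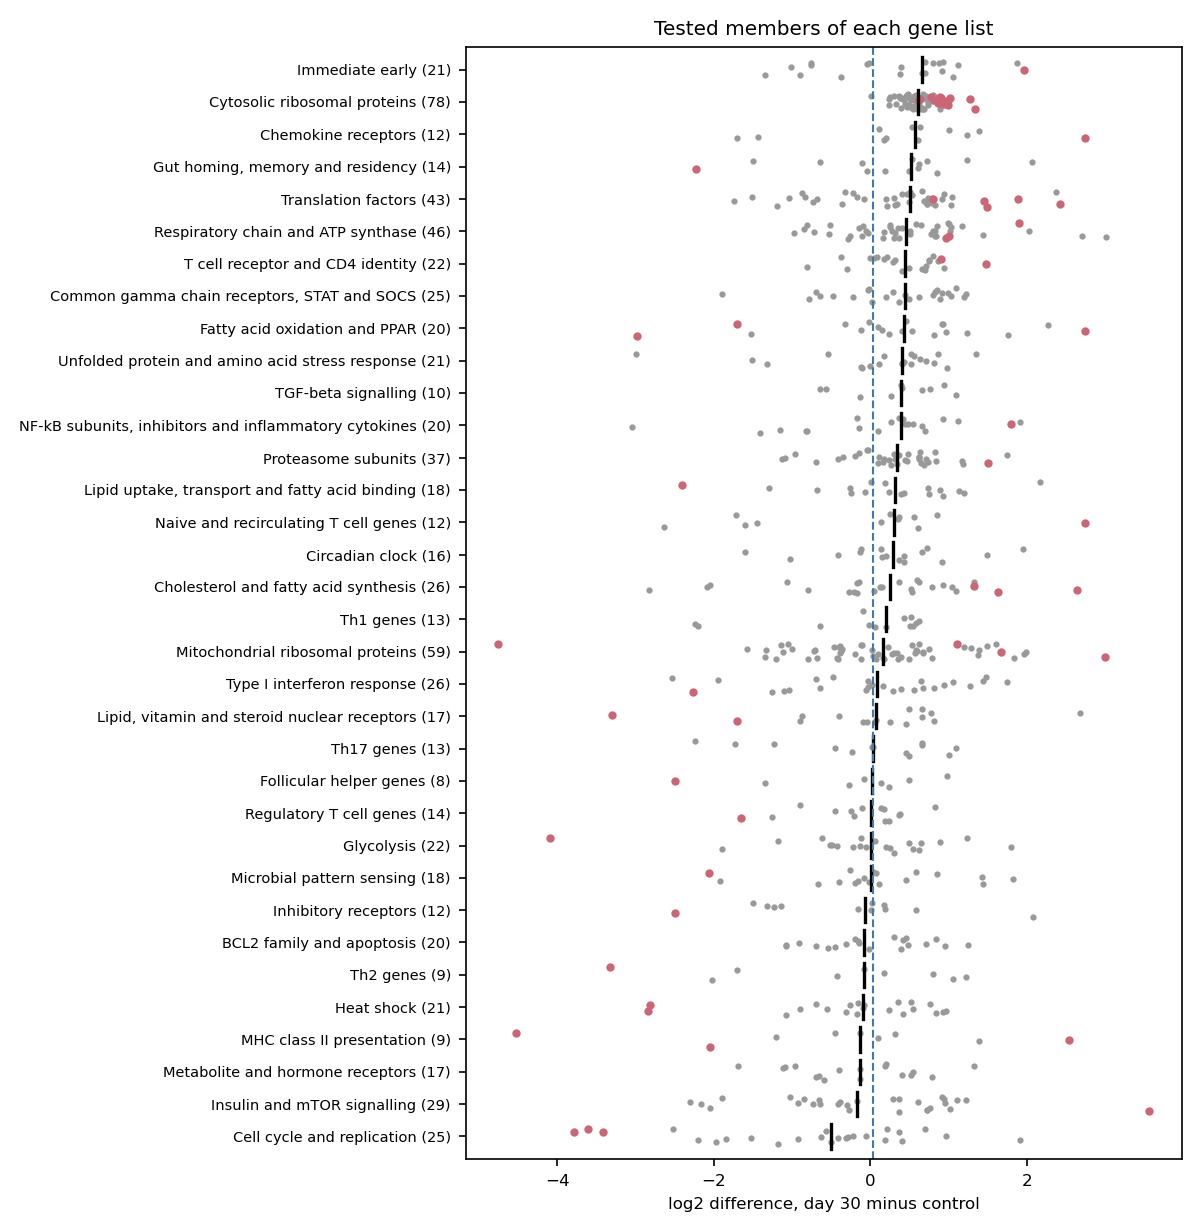
Log2 difference (day 30 minus control) of each tested member of 34 gene lists, with the number tested in brackets. Red points have an unadjusted p under 0.05, black bars are list medians and the dashed line is the median of all tested genes (0.03). Cytosolic ribosomal proteins form the tightest list, and cell cycle and replication has the lowest median at -0.51.

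Markers of non-T cells were read list by list. Of 8 tested B cell and plasma cell genes 7 were higher and 1 lower (median 0.53, or -0.066 in the authors' value table), and of 8 tested stroma, muscle and endothelium genes 2 were higher and 6 lower (median -0.74, negative in all 24 alternatives). Of 13 tested CD8, NK and cytotoxic genes 5 were higher, with Cd8a at -1.22 (SE 1.11), and the summed level ranged from 53.3 to 250 in control and from 99.5 to 166 at day 30. Kit and Nmur1, found on innate lymphoid cells, with Kit also on mast cells, differed by -2.81 (SE 0.96) and -2.35 (SE 0.96), in a list with 5 of 9 genes higher. Granulocyte and mast cell markers were mostly dim: 4 of 13 were tested, all lower, and names above background per array ran from 4 to 11 in control and from 2 to 6 at day 30. For absorptive epithelium 4 of 12 tested genes were higher, with 10 to 15 of 17 names above background in control and 6 to 12 at day 30, and Anpep, a brush border peptidase, at 2.41 (unadjusted p = 0.0499 by limma). The same counts for secretory epithelium were 4 to 13 and 4 to 8 of 17. Alpi and Sis, enzymes of mature enterocytes, were above background on 0 of 10 arrays. Summed over the 12 tested absorptive genes, however, the level ranged from 230 to 331 in control and from 249 to 554 at day 30. Of those 12 genes, 1 was in the brightest of 4 equal bins. Names above background were 8 to 10 and 5 to 8 of 15 for stroma and endothelium, 2 to 9 and 3 to 9 of 12 for pancreatic acinar cells, and 1 to 4 and 0 to 2 of 6 for red blood cells. Fewer spots of any kind were detected at day 30, and the part of these cells in the gene values was not tested.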

How the data were processed

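RNA of CD4 T cells was hybridised in Cy3 to one-colour Agilent mouse arrays after SuperAmp amplification, per the labels' protocols. The scanner files hold intensity values that Agilent Feature Extraction 10.7.3.1 (protocol GE1_107_Sep09) background-subtracted, per the file headers. The value table deposited by the authors holds log2 values that follow the mean signal, with centring not given in the sources used here. It served as an alternative.

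From the 10 arrays, log2 processed signal minus the array's 75th percentile over non-control probes was taken, outlier spots were left out, and the brightest probe stood for a gene. Genes well above background on at least 5 arrays were tested with limma 3.58.1 (lmFit, eBayes with trend, R 4.3.3) and Benjamini-Hochberg adjustment at 0.05. The script was tested on simulated data. Array gene names were updated through RefSeq (GRCm38.p6) for 22525 of 34821 names. On day 30 replicate 3, 1 damaged line was left out. The number of arrays limits the precision.

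Named genes were the 12 per direction of smallest p among symbols with no overlap, at least 4 arrays of the brighter group above background and no opposing probe, a fixed set of regulators and cytokines, and the member of smallest p in each direction of each list; a few genes of this rule are not reported here. Other members are named for their role and were chosen after their values were seen. The comparison, the members and the gene lists were chosen with earlier results of these data known. Replicate numbers were not used to pair the arrays in the main test. Deviations correlated over 0.1 in 1 of 5 pairs, which cannot settle whether the numbers pair them.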

Additional observations from a re-analysis of the deposited data

Results flagged for a closer look

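In 122 groups of 5 values, from the control and day 30 values of 60 named genes and of the share of detected spots, 9 held an array far from the other 4, by a gap that exceeded Dixon's critical value of 0.71 of the group's range. Chance flags about 1 in 20 groups. Among the regulators and leading genes, Csnk2a2 was highest on day 30 replicate 3 (3.22), Vkorc1l1 and Ccno were highest on day 30 replicate 2 (-1.32 and -1.39), and Il10 was lowest on control replicate 1 (0.30). On day 30 replicate 4, Il17f (-5.06) and Pdcd1 (-5.55) were far below the other arrays of their group. Ppargc1a was lowest on day 30 replicate 5 (-4.82). Among controls, Ppara was lowest on replicate 2 (-2.34) and Mvk highest on replicate 3 (3.37).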

How the results depend on the processing

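The count of genes at an adjusted p under 0.05 was 0 by limma in all settings except slide as a block over 15 arrays (1, Vkorc1l1), array weights (5) and the leave-one-out fits (0 to 1). Higher genes at an unadjusted p under 0.05 numbered 202 with the percentile over detected probes, 173 in the value table, 712 with no filter and 854 when the detected share entered as a covariate, and 340 to 962 with 1 array left out. Lower genes numbered 925 with the percentile over detected probes, 339 with normexp, 1174 in the value table, 158 among genes above background on all 10 arrays, 331 with slide as a block and 882 with the covariate, and 486 to 689 with 1 array left out. The difference in detected spots ranged from -15.7 to -7.92 points with 1 array left out. The cause of these shifts was not tested.

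Of the named genes, 7 changed sign somewhere. In the value table Cd4 was -0.022, Tbx21 -0.24, Bcl6 -0.38, Il17a -0.44 and Il17f 0.036. With slide as a block Bcl6 was -0.0100, Il17a -0.84, Il17f 1.40, Nfkb2 -0.050 and Slc2a3 0.31. With the covariate Bcl6 was -0.45 and Il17a -1.51. Without control replicate 1 and day 30 replicate 3, a setting chosen after seeing the data, Bcl6 was -0.24 and Il17a -1.03. With the percentile over detected probes Bcl6 was -0.25 and Il17a -0.35, with quantile normalization Bcl6 was -0.056, and with array weights Il17a was -0.34. Il17f was 0.015 with normexp and 0.043 with values raised to the limit. With 1 array left out Bcl6 ran from -0.14 to 0.48, Il17a from -0.59 to 0.61 and Il17f from -1.14 to 1.10.

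With the replicate number as a block, 0 genes passed and 560 were higher and 627 lower at an unadjusted p under 0.05. In that check 4 of 10 arrays correlated best with their own number, as a hint from the data. Dim signal limits the genes lower at day 30, for which a bound is all the arrays give where no day 30 array was above background.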
